A study of Danio rerio with 16 samples.

Results

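Embryos injected with an RNA named Foggy(DelCter) were set against embryos injected with a control RNA, both at the 12-somite stage of zebrafish (Danio rerio) development. Of the 16 arrays in the series, 6 belong to this comparison: 3 titled for Foggy and 3 for control at 12 somites. These arrays were taken by title and description and by no measured value. The comparison itself and the gene lists below were chosen with earlier results of these data known. The other 10 arrays are 6 labelled foggy mutant and 4 labelled wild type at 36 h, described as embryonic brain. The 3 mutant and 3 wild-type arrays numbered 4 to 6 among them are used once, at the end. The labels give no strain, allele, RNA dose, number of embryos or name for the control RNA, and they do not say what DelCter removes. Nor do they tell whether arrays of 1 group came from separate injections, so the p-values below reflect only how far these samples scatter, a scatter that may be technical. The question asked is which transcripts differ in early somite embryos after injection of the altered foggy RNA.

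The foggy gene is supt5h, whose protein Spt5 joins Spt4 to form DSIF, which attaches to RNA polymerase II shortly after a transcript begins. DSIF and the NELF complex hold the polymerase in a pause near the promoter. The kinase P-TEFb, made of Cdk9 and a cyclin T, then phosphorylates NELF, the polymerase tail and the carboxy-terminal region of Spt5, after which DSIF travels with the polymerase and aids elongation. Hexim1 and a small nuclear RNA bound by Larp7 and Mepce keep part of the P-TEFb inactive. In Drosophila, heat shock genes are the classic case of genes held in such a pause. At the early somite stage the zebrafish embryo forms trunk muscle, notochord, brain regions and eye fields above a yolk whose outer syncytial layer makes lipoproteins.

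Every array carried 15502 probe sets besides its control probe sets, 1 value per probe set as intensity on a linear scale, with each array scaled to the same trimmed mean. Array medians were 46.7 to 47.7 units in the Foggy(DelCter) arrays and 49.9 to 51.3 units in the control arrays. Across probe sets the arrays correlated at r of 0.985 to 0.987 within a group and 0.975 to 0.982 between groups, and no array stood apart. Tag control probe sets, which should match no transcript, reached 23.9 units, and a mean at or under that level is called within the tag range below. RNA integrity can be read from the GAPDH control as the log2 ratio of its 3′ to its 5′ probe set, which was 0.63, 0.60 and 0.89 in the Foggy(DelCter) arrays and 0.63, 0.42 and 0.43 in the control arrays. The same ratio of the actin control was 3.15, 2.58 and 2.59 in the Foggy(DelCter) arrays and 3.35, 3.06 and 3.01 in the control arrays, so that the GAPDH and actin ratios leaned in opposite directions. Their part in the results was not tested. The source field of all samples names brain and adrenal medulla. Of 17 measured neurotransmitter and chromaffin genes, 14 had both group means within the tag range, among them th, dbh, ddc and chga. Krt4, a keratin of the skin surface, measured 7826, 6940 and 9156 units in Foggy(DelCter) arrays and 10457, 9276 and 8783 units in control arrays.

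After Foggy(DelCter) RNA the heat-inducible chaperone gene hsp70.3 and the ventral homeobox gene ved were among the rises, and the yolk lipoprotein gene apoba, the muscle actin gene acta1a and the eye field gene rx1 among the falls. Of the gene lists examined, that of endoderm, yolk layer and liver held the most falls (12 of 37 measured genes) and that of signalling genes the most rises (8 of 47). In all, 750 of 15502 probe sets were called (4.84%), 228 higher (1.47%) and 522 lower (3.37%). The excess of falls depended in part on the processing: rises were 30.4% of these calls and 40.3% after quantile normalization (256 higher, 380 lower). With the scaling unchanged, rises were 40.0% of calls under a filter at the 60th percentile of mean level and 38.4% with a pseudocount of 64. In the other settings tried they were 29.9% to 37.7%. A probe set was called where limma's 2-sided moderated test on log2(value + 16), 3 against 3 arrays, gave a Benjamini-Hochberg adjusted p under 0.05 over all probe sets. The log2 differences below run Foggy(DelCter) minus control on that scale, which understates the change of dim genes. Among the calls 40 were at least 2-fold higher and 94 at least 2-fold lower. In every called probe set the groups did not overlap, a separation found upward in 10.8% and downward in 14.7% of all probe sets tested. Over all probe sets the median log2 difference was -0.02, with the central 80% between -0.38 and 0.30. An unadjusted p under 0.05 was reached by 3064 of the 15502 probe sets, in either direction. The list counts at that level given below are to be read beside that share. In a mixed sample such as a whole embryo, fewer cells of a type and less RNA per cell cannot be told apart. Both groups are labelled 12 somites, and whether they had reached the same point of development was not tested. Leaving out 1 array lowered the calls to 367, 271 and 269 without Foggy(DelCter) array 1, 2 or 3. Without control array 1, 2 or 3 they numbered 300, 408 and 207. Of the 750, 203 to 362 were called again. All 750 kept their sign, which is no test, since groups that do not overlap keep their order in such fits. Calls that end when 1 array is left out are named with the genes below.

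**Figure D1:**
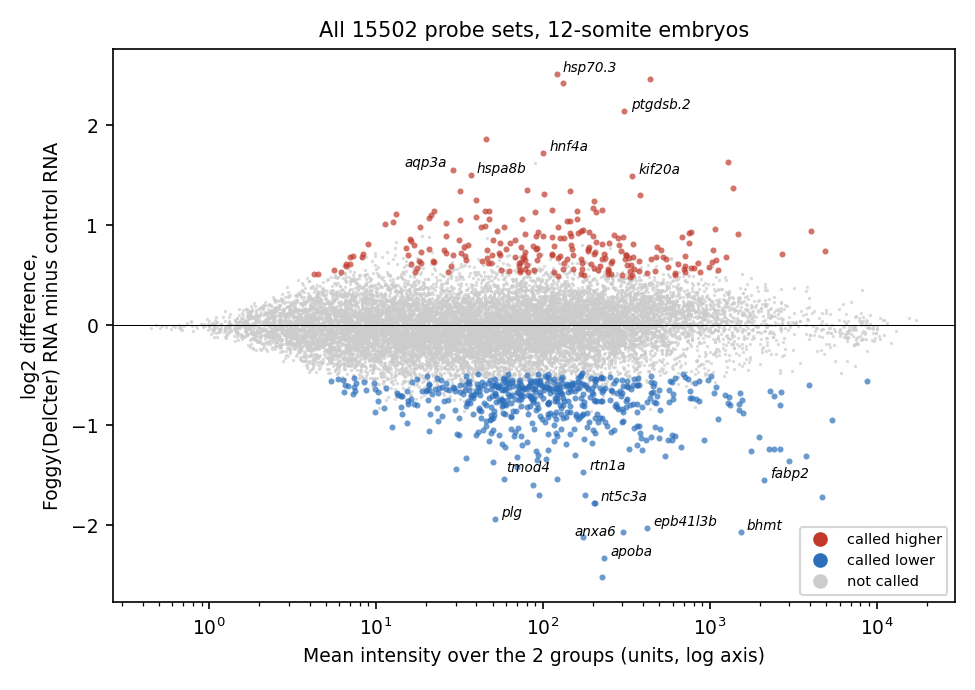
Log2 difference, Foggy(DelCter) RNA minus control RNA, of each of the 15502 probe sets (vertical axis) against its mean intensity over both groups in units (horizontal log axis), with called probe sets in colour. The 228 called higher lie above 0 and the 522 called lower below 0, and hsp70.3 and apoba are at the ends among the labelled genes.

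The largest rise of a named gene was that of hsp70.3, a heat-inducible chaperone. It measured 219, 195 and 237 units in Foggy(DelCter) arrays and 22.5, 24.5 and 27.5 units in control arrays. Each Foggy(DelCter) value lay far above each control value. On the log2 scale hsp70.3 differed by 2.51 ± 0.13 (SE, limma adjusted p = 3.43e-05). The probe set is of a kind that also matches related transcripts, so the value is uncertain among near-identical heat shock genes. The cognate chaperone hspa8b measured 55.2, 58.8 and 72.1 units against 17.4, 4.86 and 13.5 units in controls, whose mean was within the tag range, which sets the rise at 2.59-fold or more.

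Other rises included ptgdsb.2, the next largest, and ptgdsb.1, family members that encode lipocalins of the prostaglandin D synthase type. Ptgdsb.2 measured 456, 496 and 588 units in Foggy(DelCter) arrays and 99.2, 110 and 102 units in control arrays, and ptgdsb.1 measured 503, 512 and 629 units against 181, 243 and 213 units. Both sets of values were apart, with log2 differences of 2.14 ± 0.13 (limma adjusted p = 9.5e-05) and 1.3 ± 0.15 (0.00199). Hnf4a, a nuclear receptor of liver, gut and yolk layer, measured 171, 160 and 159 units against 38.6, 34.7 and 41.1 units in controls. Its log2 difference was 1.73 ± 0.12 (limma adjusted p = 0.000186), while a second, dim probe set of the gene measured 0.30 and was not called. Kif20a, a kinesin of cell division, measured 465, 603 and 467 units against 143, 174 and 198 units in controls (1.49 ± 0.16, limma adjusted p = 0.00136). A second kif20a probe set of like brightness in controls measured -0.26 and was not called, so the 2 probe sets disagree.

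The remaining large rises were of a water channel, a surface glycoprotein, a peroxidase, a Bmp regulator, a cytokine feedback gene and an olfactomedin. Aqp3a, the glycerol and water channel of skin, measured 40.8, 55.8 and 56.3 units in Foggy(DelCter) arrays and 7.18, 7.77 and 4.97 units in controls, a rise of at least 2.13-fold over the tag range. Tpbg1b measured 273, 294 and 310 units against 112, 105 and 127 units in controls (log2 difference 1.24 ± 0.13). Prdx1, a peroxide-reducing enzyme, measured 344, 399 and 217 units against 119, 167 and 113 units in controls (1.15 ± 0.22, limma adjusted p = 0.0222), the third Foggy(DelCter) array being lowest of its group and still above each control. All 3 of the prdx1 probe sets were called higher, and the call of this one ended without Foggy(DelCter) array 1 or 2 or control array 1 or 3 (adjusted p up to 0.0937). Olfm1b, a secreted protein of the nervous system, was at least 1.53-fold higher, with 32.4, 34.5 and 42.9 units in Foggy(DelCter) arrays against 3.55, 8.49 and 12.1 units in controls. Szl and socs3a, the others of the 12 largest, are given with their lists below.

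**Figure D2:**
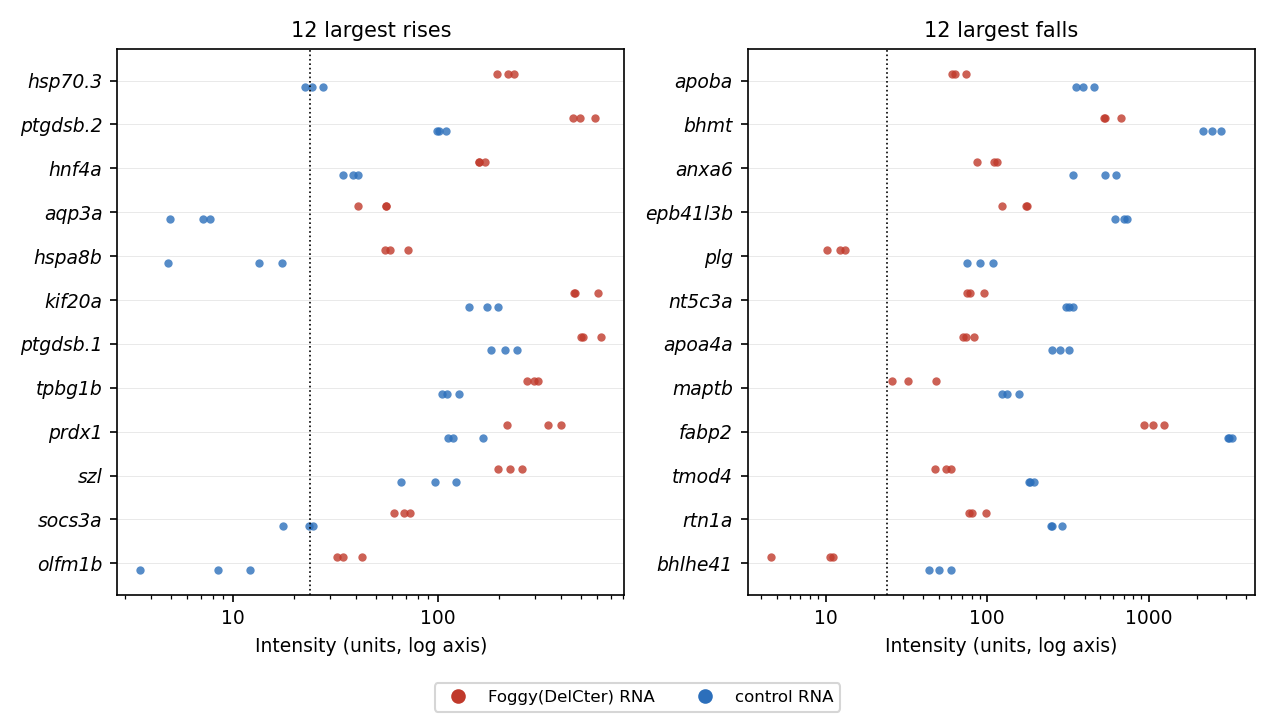
Intensity (units, log axis) of the 12 largest rises and 12 largest falls in each Foggy(DelCter) array (red, upper points of a row) and control array (blue, lower points), with the highest tag control of 23.9 units as a dotted line. In every row the groups are apart, and hspa8b, aqp3a and olfm1b in controls and plg and bhlhe41 in Foggy(DelCter) arrays lie left of the dotted line.

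The largest falls were led by genes of lipid transport and of liver-type metabolism. Apoba, an apolipoprotein B that scaffolds the lipoproteins exported from yolk, measured 74.5, 61.0 and 63.2 units in Foggy(DelCter) arrays and 456, 352 and 391 units in control arrays. The groups were far apart, and apoba fell by 2.33 ± 0.14 on the log2 scale (SE, limma adjusted p = 9.16e-05). A second apoba probe set lay within the tag range in both groups. Bhmt, betaine-homocysteine methyltransferase, measured 672, 527 and 538 units against 2812, 2162 and 2472 units in controls (-2.07 ± 0.15), and a second probe set of bhmt fell by 1.72. Plg, the plasminogen gene, measured 12.3, 13.2 and 10.2 units against 108, 75.3 and 90.9 units in controls, a fall of at least 3.82-fold since the Foggy(DelCter) mean was within the tag range.

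Falls of similar size were spread over membrane, cytoskeletal and other genes. Anxa6, a calcium-dependent membrane-binding annexin, measured 111, 86.8 and 114 units in Foggy(DelCter) arrays and 338, 622 and 537 units in controls (log2 difference -2.07 ± 0.21, limma adjusted p = 0.00128). Epb41l3b, a membrane skeleton protein, measured 175, 123 and 173 units against 617, 737 and 703 units in controls (-2.03 ± 0.16). The controls of anxa6 varied more than those of epb41l3b, yet in both genes the groups were well apart. Nt5c3a, a nucleotidase, fell by 1.78 ± 0.13, and its other probe set fell by 1.3. Maptb, a tau protein of axonal microtubules, measured 32.5, 48.2 and 25.7 units against 133, 157 and 124 units in controls (-1.60 ± 0.17). Rtn1a, a reticulon of neuronal endoplasmic reticulum, fell by 1.47 ± 0.13. Tmod4, which caps actin filaments in muscle, measured 59.7, 55.8 and 47.8 units against 185, 182 and 195 units in controls (-1.54 ± 0.12). Bhlhe41, a repressor of the circadian system, measured 4.57, 11.1 and 10.6 units against 44.0, 59.5 and 50.2 units in controls, at least 2.14-fold lower. Of these 24 largest changes, the calls of prdx1 and szl were the only ones that ended when 1 of the 6 arrays was left out.

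The gene that the injected RNA derives from, supt5h, measured 477, 393 and 414 units in Foggy(DelCter) arrays and 436, 393 and 397 units in control arrays. The groups overlapped, and supt5h differed by 0.06 ± 0.13 on the log2 scale (SE, limma adjusted p = 0.843). No source used here tells whether its 1 probe set matches the injected RNA, so this value checks nothing about the injection.

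Of 30 measured transcription elongation genes, 1 rose, none fell and 29 were not called, with a median log2 difference of 0.10. At an unadjusted p under 0.05, 1 was higher and 0 lower. For a symbol with several probe sets, the brightest stands in such counts, and over all 8793 symbols 160 rose and 314 fell (5.39% called) with a median of -0.01. The called gene was hexim1, the inhibitor of P-TEFb, with 752, 1106 and 1112 units in Foggy(DelCter) arrays and 417, 562 and 560 units in controls. Its lowest Foggy(DelCter) value exceeded its highest control value, with a log2 difference of 0.92 ± 0.19 (limma adjusted p = 0.026). Without Foggy(DelCter) array 2 or 3, or without any 1 of the controls, that call ended (adjusted p up to 0.0996), while the fit with the replicate number as a block gave 0.0123.

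No partner of hexim1 and no pause factor was called. Mepcea, which caps the small nuclear RNA, measured 118, 114 and 115 units against 65.7, 97.7 and 104 units in controls, and larp7, which binds it, measured 226, 247 and 226 units against 217, 183 and 176 units. In both genes the groups were apart, but neither was called (log2 differences 0.34 and 0.26, limma adjusted p = 0.273 and 0.294). Cdk9, the P-TEFb kinase, measured 434, 476 and 426 units against 379, 406 and 370 units in controls (0.20, adjusted p = 0.389), and its cyclin ccnt1 differed by 0.16 (0.515). The NELF subunits nelfa, nelfb, nelfcd and nelfe had log2 differences of 0.21, -0.13, 0.24 and 0.22, none of them called.

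RNA polymerase II subunits were higher in each of the 8 genes measured, and in all 8 the 3 Foggy(DelCter) values exceeded the 3 control values. Such an upward separation was found in 10.8% of all 15502 probe sets. Limma called 2 of the 8 higher and none lower, 5 were higher and 0 lower at an unadjusted p under 0.05, and the median log2 difference was 0.45. Polr2a, the catalytic subunit that carries the phosphorylated tail, measured 1077, 923 and 906 units in Foggy(DelCter) arrays and 690, 654 and 592 units in controls (0.57 ± 0.13, limma adjusted p = 0.039). Its other 2 probe sets were between 0.38 and 0.59 and not called. Polr2i, a small subunit of the polymerase lobe, measured 599, 574 and 513 units against 404, 357 and 377 units in controls (0.55 ± 0.12, adjusted p = 0.0391). Polr2j and polr2f stood just outside the threshold, at 0.50 (adjusted p = 0.0512) and 0.48 (0.0523). Leaving out any 1 array ended the calls of polr2a and polr2i (adjusted p up to 0.135), and with the replicate block polr2i had an adjusted p of 0.0513.

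**Figure D3:**
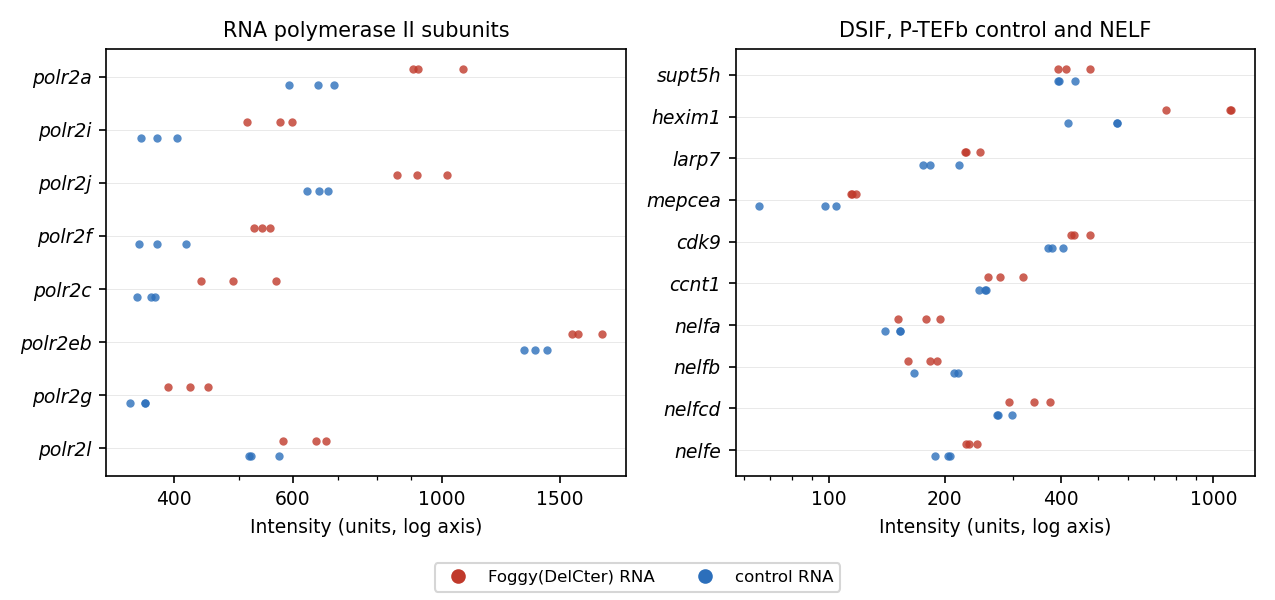
Intensity (units, log axis) of the 8 measured RNA polymerase II subunits and of 10 genes of DSIF, P-TEFb control and NELF in each Foggy(DelCter) array (red) and control array (blue). The red points lie right of the blue ones in all 8 subunits and in hexim1, while the points of supt5h overlap.

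Among 22 heat shock and protein folding genes, 3 rose and none fell, 8 were higher and 1 lower at an unadjusted p under 0.05, and the median log2 difference was 0.21. Beside hsp70.3 these were hsp90aa1.2 and hspe1. Hsp90aa1.2, a cytosolic chaperone of the Hsp90 class, measured 103, 132 and 120 units in Foggy(DelCter) arrays and 61.0, 62.9 and 65.2 units in controls (0.76 ± 0.13, limma adjusted p = 0.012). Its second probe set was called too, at 0.85. Hspe1, a mitochondrial co-chaperonin, measured 1371, 1291 and 1325 units against 827, 914 and 970 units in controls (0.55 ± 0.12, adjusted p = 0.035). The muscle-enriched family member hsp90aa1.1 was at -0.49 and the constitutive chaperone hspa8 at 0.07, neither called. In the endoplasmic reticulum list, 2 of 17 genes fell and none rose, 6 being lower and 1 higher at an unadjusted p under 0.05. Calr3b, a calcium-binding calreticulin, measured 216, 182 and 191 units against 377, 357 and 358 units in controls (-0.84 ± 0.12), and creb3l2, a regulator of secretory capacity, fell by 0.55 ± 0.12. The calls of hspe1 and creb3l2 ended whichever array was left out (adjusted p up to 0.101 and 0.122) and with the replicate block (0.0534 each), and that of hsp90aa1.2 ended without Foggy(DelCter) array 2 or 3 or control array 3 (up to 0.0537).

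Immediate early genes, which respond first to signals, went both ways: 5 of 35 rose, 2 fell and 28 were not called, with a median log2 difference of 0.05. Socs3a, the feedback inhibitor of cytokine receptors, measured 73.1, 61.1 and 68.8 units in Foggy(DelCter) arrays and 23.6, 24.8 and 17.6 units in controls, at least 2.83-fold higher since the control mean was within the tag range. Klf2a, a flow- and signal-responsive zinc finger factor, measured 124, 104 and 94.1 units against 54.4, 59.5 and 35.8 units in controls (0.92 ± 0.17). The nuclear protein gene ier2a rose by 0.75 ± 0.14, the kinase gene sgk1 by 0.71 ± 0.15 and the dim interferon-pathway factor irf1b at least 1.26-fold. Ccn2a, a secreted matrix protein, fell by 0.75 ± 0.16 and the zinc finger gene egr2b by 0.52 ± 0.12. Socs3a kept its call whichever array was left out. Klf2a lost its call without Foggy(DelCter) array 1 or 2 or control array 3, irf1b without Foggy(DelCter) array 1 or 3 or control array 1 or 3, and ier2a without Foggy(DelCter) array 2 or 3 or control array 1 or 3 (adjusted p up to 0.0879). Sgk1 lost it without any array but control array 2, ccn2a without any but Foggy(DelCter) array 2, and egr2b without any 1 (adjusted p up to 0.127). With the replicate block the adjusted p was 0.0614 for sgk1, 0.0549 for ccn2a and 0.0576 for egr2b.

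In the list of p53 targets, gadd45 genes and apoptosis genes, 1 of 25 rose and none fell, with 2 higher and 1 lower at an unadjusted p under 0.05. The count of calls is no larger than the share of all symbols called, 5.39%, would give. Gadd45ga, a stress-inducible gene that also marks cells leaving the cycle, measured 90.2, 121 and 111 units in Foggy(DelCter) arrays and 48.7, 46.8 and 34.4 units in controls (log2 difference 1.06 ± 0.15, limma adjusted p = 0.00605). Its call was kept whichever array was left out. Gadd45bb, a stress-inducible relative, was not called, but passed as higher with the replicate block (0.68, adjusted p = 0.0419, against 0.0556 without the block). The p53 targets mdm2, ccng1 and phlda3 were at -0.30, 0.03 and 0.05 and were not called. Of 11 interferon and innate response genes none was called by limma, and 2 were higher and 0 lower at an unadjusted p under 0.05. Both means lay within the tag range in 5 of the 11. Isg15, an antiviral ubiquitin-like protein, measured 22.0, 44.9 and 23.2 units against 24.0, 9.84 and 8.33 units in controls, with overlapping groups. Irf7, a regulator of interferon genes, measured 23.5, 19.1 and 34.0 units against 17.0, 2.33 and 18.6 units in controls (adjusted p = 0.221).

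Genes of endoderm, yolk syncytial layer and liver held the most calls of any list. Of 37 measured, 12 fell, 3 rose and 22 were not called, with a median log2 difference of -0.21. Their summed level was 36060 to 41520 units in Foggy(DelCter) arrays and 53031 to 59059 units in control arrays. Beside apoba, the falls included the other apolipoproteins apoa4a, apobb.1, apoa1a, apoa2 and apoea. Apoa4a measured 71.0, 83.0 and 73.5 units in Foggy(DelCter) arrays and 319, 250 and 283 units in controls (-1.70 ± 0.13, limma adjusted p = 0.000278). Apobb.1 measured 1627, 1517 and 1206 units against 3235, 3544 and 3513 units in controls (-1.24 ± 0.14). Every Foggy(DelCter) value of both genes was under every control value. Apoa1a, the main protein of high-density lipoprotein, measured 4050, 3478 and 3480 units against 7590, 6924 and 6820 units in controls (-0.95 ± 0.12). Apoa2 fell by 0.71 ± 0.13, and apoea was called lower with both means within the tag range, so no size is given.

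Other members of this list, for secreted and lipid-handling products, fell as well. Fabp2, an intestinal-type fatty acid binding protein, measured 1240, 1054 and 931 units in Foggy(DelCter) arrays and 3256, 3086 and 3137 units in controls (log2 difference -1.55 ± 0.14, limma adjusted p = 0.000612). Tfa, the iron carrier transferrin, measured 1466, 1482 and 1762 units against 3448, 3817 and 3884 units in controls (-1.24 ± 0.13). Complement gene c3a.1 measured 21.1, 15.5 and 25.6 units against 81.3, 58.1 and 100 units in controls, at least 3.33-fold lower. The protease gene ctsba fell by 0.67, the small secreted protein gene afp4 by 0.55 and the protease inhibitor serpina1l by 0.66. The rises ran against these: hnf4a, described above, the fetuin gene ahsg1 (34.8, 24.5 and 13.3 units against 1.2, 3.26 and 1.83 units in controls, at least 1.01-fold higher) and gata5, an endoderm and heart mesoderm factor, at 0.50 ± 0.12. Members of the list that were not called included apoeb (-0.09), mttp (-0.21) and the vitellogenin vtg2 (0.00). Of these 15 calls, those of apoba, apoa4a, fabp2, tfa, apobb.1, apoea, apoa1a, c3a.1 and hnf4a were kept whichever array was left out. Those of gata5, ctsba and afp4 ended in each such fit (adjusted p up to 0.132), and gata5 had an adjusted p of 0.0558 with the replicate block. Those of apoa2, serpina1l and ahsg1 each ended without Foggy(DelCter) array 2 or control array 1 or 3, that of apoa2 also without Foggy(DelCter) array 3 and that of serpina1l also without Foggy(DelCter) array 1 or 3 (adjusted p up to 0.143).

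Muscle genes were lower in 33 of the 35 measured, with a median log2 difference of -0.45. A negative difference was found in 52.3% of all 8793 symbols, and 11 of the 35 muscle genes had both means within the tag range. Limma called 9 lower and none higher, and at an unadjusted p under 0.05 there were 20 lower and 1 higher. The summed level was 5790 to 6989 units in Foggy(DelCter) arrays and 8752 to 10786 units in controls. Acta1a, a skeletal alpha-actin, measured 826, 652 and 827 units in Foggy(DelCter) arrays and 1567, 1331 and 1567 units in controls (-0.94 ± 0.14, limma adjusted p = 0.00765). Smyhc1, the slow myosin heavy chain, measured 295, 244 and 181 units against 629, 497 and 482 units in controls (-1.12 ± 0.18). The groups of both genes were well apart. Myog, the transcription factor that drives muscle differentiation, measured 68.2, 49.4 and 64.7 units against 120, 105 and 143 units in controls (-0.85 ± 0.15).

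The other muscle falls were of structural, glycolytic and calcium-handling genes. Tnnc2.2, a fast troponin C, fell by 0.88 ± 0.14, the intermediate filament gene desma by 0.97 ± 0.18, the cardiac-type actin gene actc1b by 1.11 ± 0.22 and tropomyosin tpma by 0.61 ± 0.13. Aldolase aldoab fell by 0.74 ± 0.13 and the reticulum channel gene tmem38a by 0.81 ± 0.18. For actc1b, 3 of 4 probe sets were called lower, and the fourth was within the tag range in both groups. Myf5, the earliest myogenic factor in the paraxial mesoderm, was at 0.64 and myod1 at -0.43, neither called. With the replicate block 1 muscle gene was called higher and 9 lower, since myf5 (adjusted p = 0.0357, against 0.0665 without the block) and the myosin light chain gene mylpfa (-0.60, 0.0382 against 0.0572) were called there. The calls of acta1a and smyhc1 were kept whichever array was left out, and that of tpma ended in each such fit. The other 6 ended without control array 3 and without Foggy(DelCter) array 2, all but tnnc2.2 also without Foggy(DelCter) array 3, those of myog, desma, actc1b and tmem38a also without control array 1, and that of tmem38a also without Foggy(DelCter) array 1 (adjusted p up to 0.131). With the replicate block tmem38a had an adjusted p of 0.0663.

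Segmentation clock and Notch genes, active in the tissue from which somites form, gave 1 rise and 1 fall among 32 measured, with a median of -0.05. That count is near the share of all 8793 symbols called, 5.39%. Hes6, a bHLH repressor of the clock, measured 1082, 1090 and 928 units in Foggy(DelCter) arrays and 717, 704 and 579 units in controls (log2 difference 0.62 ± 0.14). Jag2b, a Notch ligand, measured 193, 218 and 206 units against 278, 319 and 307 units in controls (-0.52 ± 0.12). Both calls ended whichever array was left out (adjusted p up to 0.135), and jag2b had an adjusted p of 0.0524 with the replicate block. With the block 2 of these genes were called higher and 0 lower, the second rise being mespaa, a factor of forming somites (0.59, adjusted p = 0.0438, against 0.105 without the block). The clock genes her1 and her7 were at 0.03 and 0.32 and the clock ligand dlc at -0.01, none called.

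In notochord, floor plate and hatching gland, 4 of 25 genes fell and 1 rose, with a median of -0.17. Col2a1a, the type II collagen of notochord sheath and cartilage, measured 361, 276 and 332 units in Foggy(DelCter) arrays and 686, 578 and 780 units in controls (log2 difference -1.04 ± 0.15, limma adjusted p = 0.00718). Col9a1b, which coats such fibrils, measured 108, 108 and 113 units against 188, 152 and 213 units in controls (-0.66 ± 0.14). The other falls were those of ccn2a, given above, and kdelr2b, a retrieval receptor of the secretory pathway (-0.52). Noto, the homeobox factor that keeps midline cells as notochord, measured 145, 165 and 185 units against 95.1, 104 and 106 units in controls (0.62 ± 0.13). The early notochord factor tbxta measured 241, 395 and 276 units against 166, 227 and 205 units in controls and was not called (0.55, adjusted p = 0.138). The call of col2a1a was kept whichever array was left out, and that of kdelr2b ended in each such fit (adjusted p up to 0.145). The call of noto was kept only without Foggy(DelCter) array 1, that of ccn2a only without Foggy(DelCter) array 2 and that of col9a1b only without control array 2. With the replicate block ccn2a and kdelr2b had adjusted p-values of 0.0549 and 0.0525.

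Blood and endothelium genes split into 2 rises and 2 falls among 28, with a median log2 difference of -0.14. In 10 of the 28 both means lay within the tag range. The embryonic globins hbae3 and hbbe3 fell, hbae3 with 149, 97.5 and 131 units in Foggy(DelCter) arrays and 239, 210 and 237 units in controls (-0.80 ± 0.16). Hbbe3 measured 87.8, 60.8 and 64.7 units against 167, 112 and 204 units in controls (-1.0 ± 0.21). The rises were of znfl2a, a zinc finger gene of early mesoderm, with 685, 644 and 697 units against 437, 418 and 407 units (0.66 ± 0.12), and of gata2a, a factor of blood precursors and ectoderm (0.61 ± 0.12). Gata1a, the red cell regulator, was at -0.46 and not called. Myb, a blood stem cell factor, was not called, but passed as lower with the replicate block (-0.64, adjusted p = 0.0413, against 0.0506 without the block). Among heart and kidney mesoderm genes 3 of 20 rose and none fell, although 7 were higher and 6 lower at an unadjusted p under 0.05. Both means were within the tag range in 9 of these 20. Gata6, an early heart and endoderm factor, measured 179, 207 and 204 units against 108, 90.7 and 90.2 units in controls (0.92 ± 0.13, limma adjusted p = 0.00514). Eve1, a homeobox gene of ventral and posterior mesoderm, measured 140, 185 and 179 units against 73.1, 93.6 and 65.9 units in controls (0.98 ± 0.16). The third rise was that of gata5, given above. The heart muscle genes tnnt2a (-0.57), myh7 (-0.54) and myl7 (-0.39) were dim and not called. The call of gata6 was kept whichever array was left out. The calls of znfl2a, eve1, hbae3, hbbe3 and gata2a each ended without control array 3. That of znfl2a also ended without Foggy(DelCter) array 3, that of eve1 without Foggy(DelCter) array 2, those of both globins without Foggy(DelCter) array 2 or 3 or control array 1, and that of gata2a without any 1 array (adjusted p up to 0.105).

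The signalling list, of Fgf, Wnt, Bmp, Hedgehog and retinoic acid ligands, inhibitors and targets, had 8 rises and no fall among 47 measured, with a median of 0.18. At an unadjusted p under 0.05, 17 were higher and 3 lower. Ved and vox, homeobox repressors that act in the ventral territory under Bmp signals, were both higher. Ved measured 311, 271 and 295 units in Foggy(DelCter) arrays and 121, 144 and 111 units in controls (log2 difference 1.13 ± 0.13, limma adjusted p = 0.00231), and vox measured 1450, 1161 and 1324 units against 773, 809 and 727 units (0.75 ± 0.13, 0.014). Szl, a secreted inhibitor of the protease that degrades Chordin, measured 226, 257 and 198 units against 66.7, 124 and 97.0 units in controls (1.14 ± 0.19, adjusted p = 0.0126). For each of these 3 genes the lowest Foggy(DelCter) value was above the highest control value. The ligand bmp2b rose by 0.73 ± 0.15, with 293, 210 and 283 units against 163, 143 and 143 units in controls, while bmp4 (0.16) and chrd (0.21) were not called.

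Hedgehog, Wnt and Nodal members made up the rest. Shhb, a Hedgehog ligand of the floor plate, measured 76.9, 81.2 and 67.0 units in Foggy(DelCter) arrays and 37.1, 30.3 and 26.6 units in controls (log2 difference 0.95 ± 0.13, limma adjusted p = 0.00584), while its paralogue shha was at -0.30 and not called. The Wnt inhibitors sfrp1a and dkk1b rose by 0.83 ± 0.17 and 0.59 ± 0.14. Lft2, an inhibitor of Nodal signals, was called higher with both means within the tag range. The Fgf target dusp6 (0.21), the Wnt target axin2 (0.18) and the Hedgehog target gli1 (-0.05) were not called. Ved and shhb kept their calls whichever array was left out, and vox and szl lost theirs without control array 3, vox also without Foggy(DelCter) array 3 and szl also without Foggy(DelCter) array 2 (adjusted p up to 0.064). Bmp2b kept its call only without Foggy(DelCter) array 2, sfrp1a only without control array 2 and lft2 only without Foggy(DelCter) array 1, and dkk1b kept it in no such fit (adjusted p up to 0.139).

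Of 42 neural progenitor and proneural genes, 4 fell, 1 rose and 37 were not called, and the median was -0.23. A negative difference, called or not, was found in 36 of the 42 and in 52.3% of all 8793 symbols. It was also found in 55 of 70 cytosolic ribosomal protein genes, none of which was called. Elavl3, an RNA-binding protein of newborn neurons, measured 220, 239 and 196 units in Foggy(DelCter) arrays and 397, 364 and 341 units in controls (log2 difference -0.71 ± 0.13, limma adjusted p = 0.017). Gli3, a Hedgehog-regulated repressor, measured 38.4, 39.5 and 37.1 units against 82.7, 70.6 and 73.3 units in controls (-0.75 ± 0.12). The tubulin tubb5 fell by 0.57 ± 0.12, with a second probe set at -0.05, and olig3, a factor of dorsal neural progenitors, fell by 0.68 ± 0.16. The rise was that of pou5f3, a pluripotency-type factor of the blastula and early neural plate, with 146, 112 and 123 units against 60.8, 66.5 and 49.7 units in controls (0.93 ± 0.14, adjusted p = 0.00859). Zic1, a dorsal neural factor, was not called, but passed as lower with the replicate block (-0.58, adjusted p = 0.0467, against 0.0795 without the block). Gli3 and pou5f3 kept their calls whichever array was left out. Elavl3 lost its call without Foggy(DelCter) array 1 or 3 or control array 1 or 3, and tubb5 and olig3 lost theirs in each such fit (adjusted p up to 0.131).

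Brain and eye region genes had 5 falls and 1 rise among 47, with a median of -0.18. The eye field factors led. Rx1 measured 21.4, 16.7 and 20.2 units in Foggy(DelCter) arrays and 66.0, 52.5 and 62.0 units in controls, at least 2.51-fold lower since the Foggy(DelCter) mean was within the tag range. Rx2, its retinal paralogue, measured 24.8, 20.7 and 28.7 units against 56.8, 85.2 and 58.0 units in controls (log2 difference -1.01 ± 0.16), and its second probe set fell by 1.07. Six3a, a forebrain and eye factor, measured 78.2, 62.4 and 70.7 units against 164, 127 and 143 units in controls (-0.89 ± 0.14, limma adjusted p = 0.00859). The hindbrain genes epha4b, a guidance receptor, and egr2b, a segment identity factor, fell by 0.86 ± 0.18 and 0.52 ± 0.12. Irx7, a homeobox gene at the border of midbrain and hindbrain, measured 367, 409 and 398 units against 221, 223 and 260 units in controls (0.70 ± 0.12). The midbrain and forebrain factor otx2b (0.40) and the boundary gene pax2a (-0.45) were not called, and en2b, of the same boundary, passed as lower with the replicate block (-0.60, adjusted p = 0.0474, against 0.0592 without it). Rx1, rx2 and six3a kept their calls whichever array was left out, irx7 lost its call without Foggy(DelCter) array 2 or 3 or control array 1 or 2 (adjusted p up to 0.0616), and epha4b kept its call only without control array 3 (otherwise up to 0.107).

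In neural crest and placode genes 4 of 40 rose and 1 fell, with a median of 0.04. Msx2b, a homeobox factor of the neural plate border, measured 78.9, 85.2 and 94.0 units in Foggy(DelCter) arrays and 44.6, 43.1 and 37.6 units in controls (log2 difference 0.82 ± 0.12). Dlx2a, a homeobox gene of crest and forebrain, measured 142, 146 and 144 units against 72.1, 88.9 and 84.0 units in controls (0.71 ± 0.12). Foxd5, a forkhead gene of early neural ectoderm, rose by 0.78 ± 0.17, and six4b, a placode factor, by 0.53 ± 0.11. Crestin, a transcript of premigratory and migrating crest, measured 437, 377 and 444 units against 828, 645 and 710 units in controls (-0.77 ± 0.14). The crest specifiers foxd3 (0.45), sox10 (-0.13) and snai2 (0.04) were not called. Msx2b kept its call whichever array was left out, dlx2a lost its call without Foggy(DelCter) array 2 or 3 or control array 3, crestin without Foggy(DelCter) array 2 or control array 1 or 3, foxd5 without any array but control array 2 and six4b without any 1 (adjusted p up to 0.132). Six4b had an adjusted p of 0.0501 with the replicate block. Among 42 Hox genes 2 fell and none rose, with 11 lower and 7 higher at an unadjusted p under 0.05: hoxa2b, of the second hindbrain segment onward, by 0.65 ± 0.16, and hoxc13a, whose means both lay within the tag range. So few Hox calls are near the share of all symbols called, 5.39%. Both Hox calls ended whichever array was left out (adjusted p up to 0.159), and hoxa2b had 0.0758 with the replicate block.

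Epidermis and ionocyte genes had 4 falls and 3 rises among 43, with a median of -0.23 and a summed level of 49442 to 54923 units in Foggy(DelCter) arrays and 59651 to 64835 units in controls. Anxa1c, an annexin of the embryonic skin surface, measured 1962, 1939 and 1886 units in Foggy(DelCter) arrays and 3651, 3250 and 3215 units in controls (log2 difference -0.80 ± 0.12, limma adjusted p = 0.00718). The keratin krt97 measured 3199, 3016 and 3206 units against 4896, 4694 and 4655 units in controls (-0.59 ± 0.11). The annexin anxa1b and the claudin cldni fell by 0.53 and 0.56. Beside aqp3a and gata2a, the rise was that of cldn7b, a tight junction claudin (0.58 ± 0.13). The surface keratin krt4 was at -0.26 and the basal skin factor tp63 at -0.25, neither called. Aqp3a and anxa1c kept their calls whichever array was left out, and the other 5 lost theirs in each such fit (adjusted p up to 0.144). With the replicate block anxa1b and cldn7b had adjusted p-values of 0.0547 and 0.0533.

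Growth and housekeeping lists held few calls, to be read beside the 5.39% of all 8793 symbols that were called. None of 70 cytosolic ribosomal protein genes was called by limma, and 0 were higher and 0 lower at an unadjusted p under 0.05. The smallest p-values belonged to rpl6 (5131, 4359 and 5302 units against 7667, 5157 and 6294 units in controls) and rpl31 (4235, 4055 and 4447 units against 5378, 4517 and 5253 units), with adjusted p of 0.271 and 0.318. In cell cycle and replication 1 of 54 rose, namely cdt1, a licensing factor of replication origins (0.64 ± 0.14), and the median was 0.00. Of 30 histone and chromatin genes h2ax, the variant histone phosphorylated at DNA breaks, rose, with 571, 564 and 714 units in Foggy(DelCter) arrays and 358, 315 and 377 units in controls (log2 difference 0.78 ± 0.14). The call of cdt1 was kept only without control array 2, and that of h2ax ended without Foggy(DelCter) array 3 or any 1 control array (adjusted p up to 0.12). Germ cell and oocyte genes had 2 rises among 20, zp3b, an egg coat protein (0.55 ± 0.12), and the dim gra, a germ plasm transcript, and a median of 0.23. Of these 20 genes, 10 had both means within the tag range, which limits that median. Of 21 myeloid and inflammation genes, cebpb, a myeloid and stress factor, rose by 0.56 ± 0.11, and lcp1, a leukocyte actin-bundling protein, fell by 0.78 ± 0.16. Lcp1 kept its call only without Foggy(DelCter) array 2, and the other 3 kept theirs in no such fit (adjusted p up to 0.124), and zp3b had 0.0552 with the replicate block. In the neurotransmitter and chromaffin list none of 17 was called by limma, 1 being higher and 3 lower at an unadjusted p under 0.05, with the synaptic genes snap25b (-0.44) and syt1a (-0.74) the nearest.

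**Figure D4:**
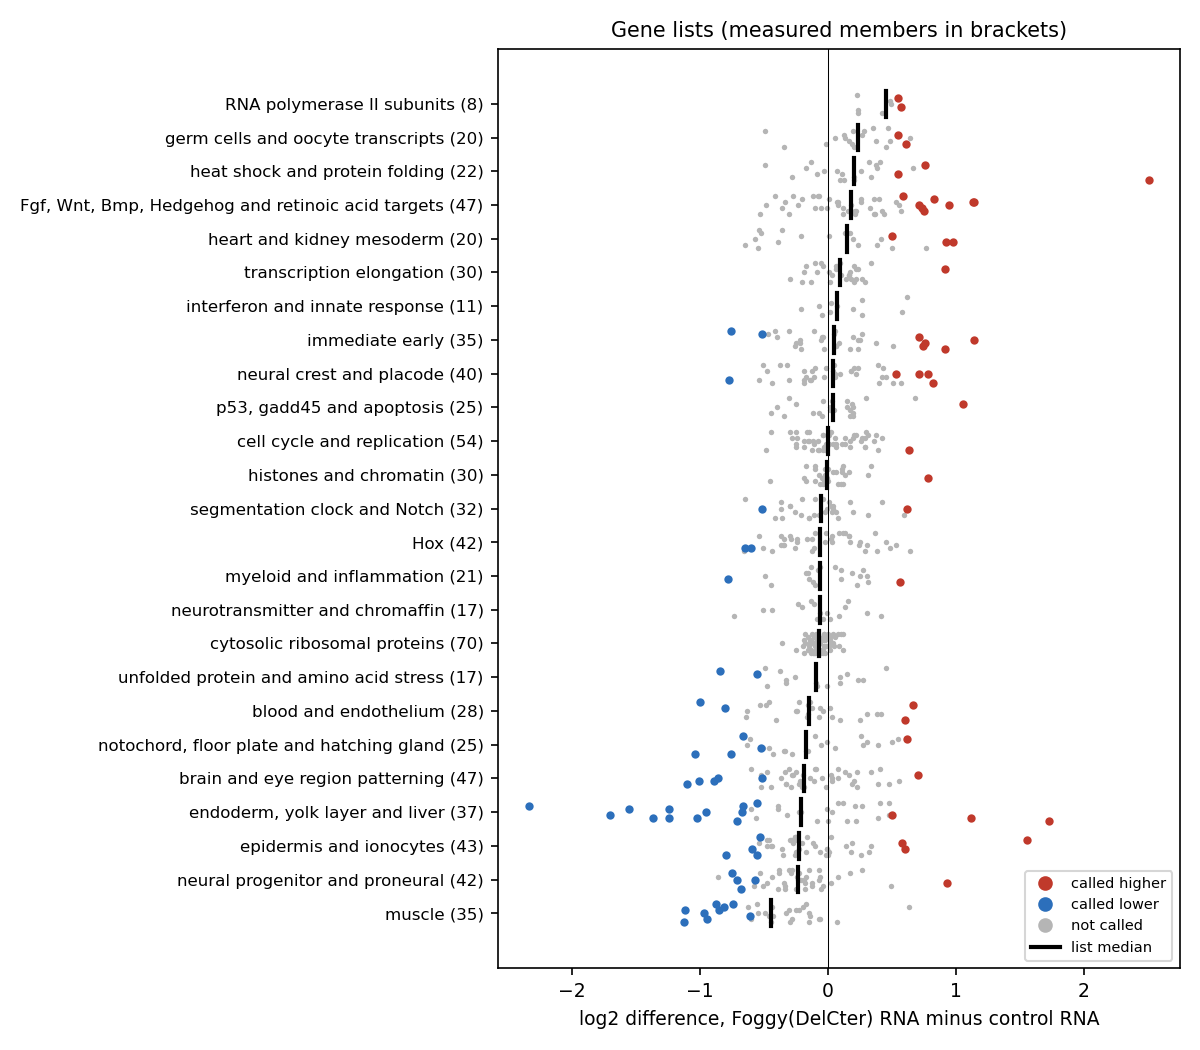
Log2 difference, Foggy(DelCter) RNA minus control RNA, of each measured member of the 25 gene lists (1 point a gene, its brightest probe set), with called members in colour and a black bar at each list's median. The medians run from 0.45 for RNA polymerase II subunits at the top to -0.45 for muscle at the bottom, and the yolk layer and liver list holds the calls farthest below 0.

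The last comparison set the injected embryos beside the foggy mutants at 36 h (numbers 4 to 6, 3 mutant and 3 wild-type arrays). These arrays are of another stage and, by their description, another material, and none is shared with the 12-somite samples. Genes of muscle, blood and yolk layer were bright in 36 h wild type, among them tnnc2.2 (5569 ± 1237 units, SD), hbae3 (7049 ± 1075 units) and fabp2 (4417 ± 656 units). Whether the 36 h arrays hold brain alone was not tested. The mutant comparison gave 624 rises (4.03%) and 1078 falls (6.95%). Of the 228 probe sets higher after Foggy(DelCter) RNA, 45 were also higher in mutants (19.7% of the injected and 7.21% of the mutant calls) and 14 were lower. Of the 522 lower ones, 100 were also lower in mutants (19.2% of the injected and 9.28% of the mutant calls) and 21 were higher. The difference between the effects, injected minus mutant in 1 limma fit over 12 arrays, was called in 968 probe sets (6.24%), 488 above 0 and 480 below. It was called in all 14 and all 21 of the probe sets called in opposite directions, in 6 of the 45 and in 10 of the 100.

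Genes called in the same direction by both included stress, muscle and blood genes. Tpbg1b rose after injection as given above and averaged 180 ± 10.4 units in mutants and 65.3 ± 3.18 units in wild type (SD, n = 3 each; log2 difference 1.27 ± 0.11, SE). Gadd45ga averaged 127 ± 24.1 units in mutants and 43.6 ± 4.05 units in wild type (1.25 ± 0.15). Actc1b averaged 2712 ± 126 units in mutants and 6673 ± 825 units in wild type (-1.29 ± 0.13), and the matrix proteoglycan gene dcn, which measured 22.9, 18.9 and 2.2 units in Foggy(DelCter) arrays and 57.0, 40.7 and 41.3 units in controls, was at least 1.93-fold lower after injection and also lower in mutants (92.4 ± 32.5 units against 356 ± 37.6 units in wild type). The hbae3 probe set with the larger change measured -1.09 ± 0.21 after injection and -1.64 ± 0.24 in mutants. The difference between the effects was not called for any of these 5 genes. They were chosen for calls in the same direction, so this follows in part from the choice. A difference that was not called does not show that the effects are equal. Hexim1 rose in mutants as well (585 ± 21.3 units, against 347 ± 22.2 units in wild type), as did polr2a (675 ± 150 units against 324 ± 71.4 units) and 6 of the 8 polymerase subunits, with no called difference between the effects. The injected calls of actc1b, hbae3 and dcn ended without Foggy(DelCter) array 2 or 3 or control array 1 or 3, and that of dcn also without control array 2 (adjusted p up to 0.141).

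Hsp70.3 rose in both, and more after injection. It averaged 217 ± 21.3 units in Foggy(DelCter) arrays and 24.9 ± 2.52 units in controls, and 74.6 ± 4.68 units in mutants against 23.1 ± 6.32 units in wild type, with a difference between the effects of 1.29 ± 0.19 (SE, limma adjusted p = 0.000888). Supt5h was low in the mutants, at 41.9 ± 4.51 units against 198 ± 32.5 units in wild type, and the difference between the effects was 1.94 ± 0.19 (adjusted p = 2.97e-05).

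Opposite calls were led by aqp3a, higher after injection and lower in mutants, at 59.2 ± 52.6 units against 575 ± 295 units in wild type (difference between the effects 4.64 ± 0.52, limma adjusted p = 8.58e-05). Since the 12-somite control mean of aqp3a was within the tag range, that value holds on the log2(value + 16) scale and is no size of change. The SD of aqp3a in mutants was nearly as large as its mean there. Tuba2, an alpha-tubulin, went the same way, with 29.0, 22.2 and 37.8 units in Foggy(DelCter) arrays and 1.83, 8.49 and 11.2 units in controls (at least 1.24-fold higher), and 77.1 ± 19.1 units in mutants against 158 ± 46.0 units in wild type. Its other 2 probe sets were dim, at 0.02 and 0.05 after injection. The reverse held for 4 genes. Cyp11a1.1, the enzyme that starts steroid synthesis, measured 128, 142 and 107 units after Foggy(DelCter) RNA and 220, 332 and 306 units in controls, but 146 ± 34.6 units in mutants against 57.5 ± 19.7 units in wild type. C7b, a complement component, measured 46.3, 40.4 and 49.8 units against 135, 138 and 147 units in controls, and 106 ± 11.1 units in mutants against 46.8 ± 21.4 units in wild type. Rbp2a, a retinol-binding protein of gut and yolk layer, measured 28.0, 29.4 and 30.5 units against 61.1, 71.6 and 79.7 units in controls, and 420 ± 17.2 units in mutants against 220 ± 9.89 units in wild type. The keratin krt99 measured 574, 672 and 669 units against 1174, 1016 and 1092 units in controls, and 214 ± 58.6 units in mutants against 98.4 ± 33.5 units in wild type. For all 4 the difference between the effects was called below 0. The injected calls of cyp11a1.1 and krt99 ended without control array 3 (adjusted p 0.053 each) and that of tuba2 without Foggy(DelCter) array 1 or 3 or control array 1 (up to 0.0775).

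Over the lists, muscle fell in 26 of 35 genes in mutants and in 9 after injection, and the difference between the effects was called in 15 of the 35. Neural progenitor genes fell in 25 of 42 in mutants and in 4 after injection, with the difference called in 5. Yolk layer and liver genes gave 2 rises and no fall in mutants, against 3 rises and 12 falls after injection, with the difference called in 14 of 37. Cell cycle genes fell in 23 of 54 in mutants and in none after injection, with the difference called in 16.

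**Figure D5:**
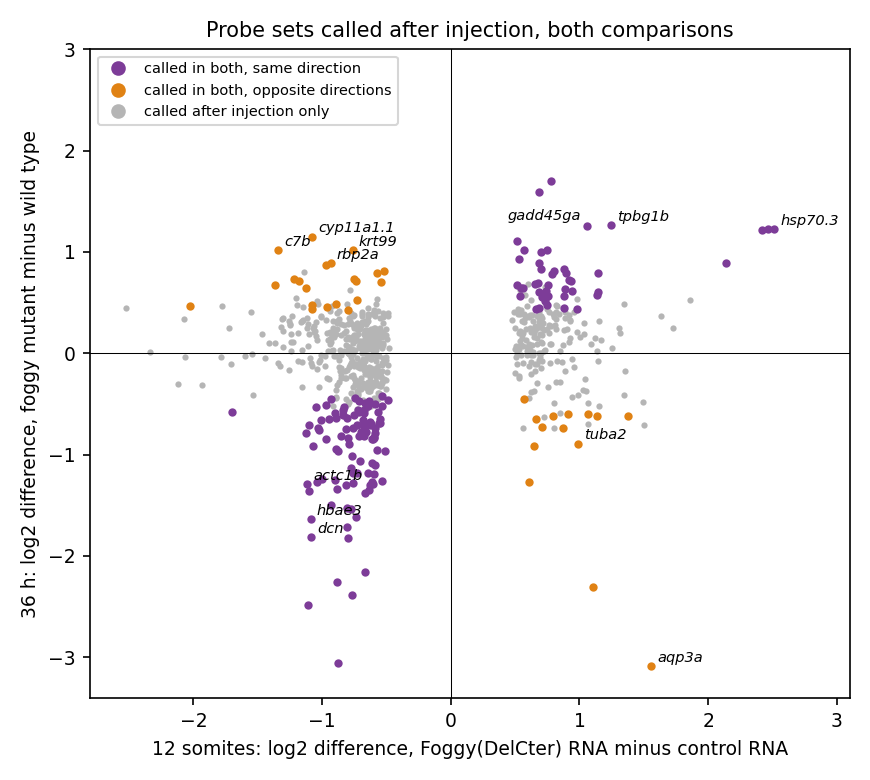
The 750 probe sets called after injection, by their log2 difference at 12 somites (Foggy(DelCter) RNA minus control RNA, horizontal axis) and at 36 h (foggy mutant minus wild type, numbers 4 to 6, vertical axis). Purple points (45 upper right, 100 lower left) were called in both in the same direction, orange points (21 upper left, 14 lower right) in opposite directions, and aqp3a lies lowest.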

How the data were processed

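Total RNA was read on 1-colour Affymetrix zebrafish arrays. The deposited values are intensity on a linear scale, 1 per probe set and array. From the values themselves, each array had been scaled so that its 2% trimmed mean was about 150.0 units. No source used here names the summarising software.

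Groups came from titles and descriptions. All 115 control probe sets were left out, and no other filter was applied. The platform annotation gave 10795 probe sets 1 symbol, 135 several and 4572 none, and only single symbols were used, updated through Entrez numbers in a RefSeq table. Values were taken as log2(value + 16) and fitted on the 6 arrays with limma 3.58.1 (lmFit, eBayes; R 4.3.3) without a block, with Benjamini-Hochberg adjustment over 15502 probe sets. The difference between the effects came from 1 fit with the 36 h arrays numbered 4 to 6. On simulated data 83% of 100 2-fold and 100% of 100 4-fold changes were called, with 4 false calls. These shares are for the brighter probe sets only. They give no sensitivity for dim genes, whose recovery was not tested.

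Same-numbered arrays deviated weakly together, with r of 0.157, 0.162 and 0.109 (other pairs at most -0.042). Deviations within a group sum to 0, so the negative values of the other pairs are no separate evidence. The numbers may thus pair the samples, which was not settled. The block result stands beside a gene or list where it ends or adds a call. Calls that quantile normalization ended are named further below.

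The comparison and the gene lists were chosen with earlier results of these data known. Named genes were supt5h and called elongation and polymerase genes, the 12 largest rises and falls of genes without a clone name, up to 4 called members of each list (or 2 where none was), and up to 6 genes called in both comparisons in each way. Further called list members, and uncalled list members given as values, were named outside that rule after their values were seen. A rise or fall from a mean within the tag range is given as at least the fold against the highest tag control. Other settings tried were quantile normalization, filters at the 30th and 60th percentiles, pseudocounts of 1 and 64, eBayes with trend and robust on, the block, 1 fit with the 36 h arrays, and each array left out.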

Additional observations from a re-analysis of the deposited data

Results flagged for a closer look

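Of the 16 probe sets set beside the 36 h mutants in the report, 8 had an effect of Foggy(DelCter) RNA at 12 somites that differed from the effect of the foggy mutation by limma's test of that difference. Of these, aqp3a, tuba2, krt99, rbp2a, cyp11a1.1 and c7b were chosen because the 2 comparisons called them in opposite directions. Their called difference therefore follows largely from that choice. Over all 92 probe sets named by the rule, 40 had a called difference. Most were named for a call after injection, which enters the difference. It was called in 317 of the 750 injected calls and in 6.24% of all probe sets. On the log2 scale, injected minus mutant, the difference was 4.64 for aqp3a, 1.94 for supt5h, 1.88 for tuba2 and 1.29 for hsp70.3. The 12-somite control means of aqp3a and tuba2 were within the tag range, so their values hold on the log2(value + 16) scale and give no size of change. It was -1.78 for krt99, -1.82 for rbp2a, -2.23 for cyp11a1.1 and -2.36 for c7b. Stage, the material as described and the kind of change to the foggy gene all differ between the comparisons and cannot be told apart.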

How the results depend on the processing

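All 750 calls kept their direction in each setting that tested them. Since their groups do not overlap, this could have failed only with quantile normalization and says little about robustness. The number of calls depended on the setting. Quantile normalization gave 256 higher and 380 lower and the replicate block 211 and 461, with 588 of the 750 also called. A filter at the 30th percentile gave 1223 (404 higher, 819 lower), and at the 60th 432 higher and 649 lower of 1081. A pseudocount of 1 gave 152 (53 and 99) and of 64 gave 1262 (485 and 777). A trend with a robust prior gave 1303 (491 and 812), and 1 fit with the 36 h arrays 372 higher and 741 lower. With 1 array left out the calls numbered 207 to 408, 70 to 131 higher and 137 to 277 lower. Of 128 called probe sets of named genes or list members, 51 were kept whichever array was left out, 28 were lost each time, 112 were kept with the replicate block and 119 with quantile normalization. The calls that quantile normalization ended were those of polr2i, hes6, epha4b, olig3, tmem38a, dcn, hoxa2b, col14a1a and nqo1 (limma adjusted p 0.0511 to 0.0692). The difference between the effects was called in 710 to 1378 probe sets over all settings run.

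Signs turned only near 0. Supt5h was between -0.016 (without Foggy(DelCter) array 1) and 0.118 (without array 2). The difference between the effects of tpbg1b was 0.086 with a pseudocount of 64 and ran from -0.077 (without control array 2) to 0.045 (without control array 3). That of actc1b ran from -0.062 to 0.331 (without Foggy(DelCter) array 1 and array 3) and that of polr2i from -0.199 to 0.025 (without wild-type array 4 and array 6). The causes were not tested. Dim genes are limited by the tag range: 56 called rises started and 87 called falls ended within it.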

Other observations

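Collagen genes, grouped after their values were seen and so given with no test, had 6 falls and no rise among 21 measured, with a median log2 difference of -0.53. Beside col2a1a and col9a1b, the fibrillar collagen col11a1a averaged 210 ± 14.9 units in Foggy(DelCter) arrays and 388 ± 20.1 units in controls (SD, n = 3 each). The basement membrane collagen col18a1a averaged 818 ± 73.6 units against 1315 ± 54.6 units, col5a2a 103 ± 20.0 units against 190 ± 24.7 units and col14a1a 31.1 ± 7.06 units against 70.6 ± 22.3 units in controls. Of the 6, col11a1a and col2a1a kept their calls whichever array was left out. Col5a2a lost its call without Foggy(DelCter) array 2 or 3 or control array 1 or 3, col18a1a kept it only without Foggy(DelCter) array 1, col9a1b only without control array 2 and col14a1a in no such fit (limma adjusted p up to 0.122).

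Enzymes around methionine, creatine and purine synthesis, likewise grouped afterwards, had 6 falls and 1 rise among 16. Gatm and gamt, the enzymes that make creatine, averaged 1044 ± 178 and 1119 ± 206 units in Foggy(DelCter) arrays, against 2513 ± 301 and 2059 ± 204 units in controls. The folate enzyme mthfd1b averaged 302 ± 36.8 units against 773 ± 86.9 units, the purine enzyme gart 218 ± 30.9 units against 520 ± 47.1 units and the S-adenosylmethionine synthase mat1a 339 ± 51.1 units against 783 ± 190 units. Gnmt, which consumes S-adenosylmethionine, went the other way, at 68.9 ± 10.1 units against 31.4 ± 8.41 units. Gamt lost its call without Foggy(DelCter) array 2 or 3 or control array 1 or 3 (limma adjusted p up to 0.0646), gnmt without Foggy(DelCter) array 1 or 2 or control array 2 or 3 (up to 0.0859) and mat1a without Foggy(DelCter) array 3 or control array 3 (up to 0.053). Of genes for peroxide and thiol defence 4 of 19 rose and 1 fell. Of the rises, nqo1 lost its call whichever array was left out (limma adjusted p up to 0.14) and with the replicate block (0.0618). Prdx1, counted here by a probe set other than that given above, kept its call only without control array 2 (otherwise up to 0.0944). The same held for the fall, that of gpx4a (up to 0.126). Sod2 and slc3a2b kept their calls whichever array was left out. The mitochondrial superoxide dismutase sod2 averaged 59.7 ± 6.42 units against 19.6 ± 1.34 units in controls, at least 2.49-fold higher since the control mean was within the tag range, and slc3a2b, a subunit of amino acid and cystine transporters, 194 ± 28.3 units against 85.5 ± 5.24 units.

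One of the control probe sets kept out of the test, which the annotation leaves without a gene name, measured 7.38, 0.883 and 2.18 units in Foggy(DelCter) arrays and 79.1, 141 and 86.7 units in controls. The files do not settle what it matches in these samples, and whether it reads part of the injected control RNA was not tested.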
